A study of Mus musculus with 8 samples.

Results

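The genes described here are 10 mouse CC chemokines, Ccl24, Ccl11, Ccl2, Ccl7, Ccl8, Ccl3, Ccl4, Ccl5, Ccl6 and Ccl9, measured in the cornea by 12 probe sets. A probe set is a group of short array probes against 1 transcript. A probe set was a member where the annotation assigned it to 1 of these symbols and to no other gene. The 10 genes stand among 18193 genes with a measured value, and the 12 probe sets among 34945 with a single gene symbol. The genes were chosen by their symbols with the differences between the groups already known, and Ccl24 was selected on its difference. The values that compare the groups are therefore given as a description of these genes, with no test. The rule is a list of names, so no threshold separates members from genes just outside it.

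The study compared corneas of mice that overexpress TGF-beta (TGFB) with corneas of their wildtype littermates, on 4 Affymetrix arrays per group, to see which corneal transcripts differ. The labels give no TGF-beta isoform, promoter, producing tissue, strain or age, and no treatment of either group. Nothing in them says that each array holds a different animal. P-values are therefore about the spread between arrays alone, and that spread may be technical. Array numbers, 1 to 4 in either group, follow record order, and equal numbers pair nothing.

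CC chemokines are small secreted proteins that draw leukocytes along a concentration gradient by binding G protein-coupled CC receptors. Ccl11 and Ccl24 are eotaxins, ligands of Ccr3, the receptor carried by eosinophils. Ccl2 and Ccl7 are monocyte attractants that act through Ccr2, and mouse Ccl8 is a ligand of Ccr8. Ccl3, Ccl4 and Ccl5 are inflammatory chemokines, and Ccl3 and Ccl5 bind Ccr1. Ccl6 and Ccl9 are rodent chemokines of myeloid cells that act through Ccr1. In the cornea, an avascular tissue with resident macrophages in its stroma, CC chemokines are known for bringing in leukocytes after injury.

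Of the 10 genes, 9 lie on chromosome 11 and Ccl24 lies on chromosome 5, between Ccl26 and Rhbdd2. In the RefSeq gene table (assembly GRCm38.p6), Ccl2, Ccl7, Ccl11, Ccl12, Ccl8 and Ccl1 follow each other as protein-coding neighbours, and so do Ccl5, Ccl9, Ccl6, Ccl3 and Ccl4. The neighbours Ccl6 and Ccl9 share a stretch of sequence at their starts, shown here because their signals are described together below. It was found by aligning 280-base windows, from 250 bases before the start to 30 bases after it, for the 4 members in the RefSeq promoter table, Ccl3, Ccl6, Ccl8 and Ccl9. The Ccl6 stretch, chr11:83593092-83593146 on the minus strand, ends 5 bases before the annotated start. The Ccl9 stretch, chr11:83578607-83578654 on the minus strand, begins 18 bases before the annotated start and runs to base 30 of the transcript. Capitals mark bases that are identical in the alignment, and both are written 5′ to 3′.
Ccl6: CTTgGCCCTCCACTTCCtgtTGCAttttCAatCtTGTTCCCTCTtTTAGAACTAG
Ccl9: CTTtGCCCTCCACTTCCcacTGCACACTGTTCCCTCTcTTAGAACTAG
Of 55 aligned positions 43 were identical, 5 were mismatches and 7 were gaps, an identity of 78.2%. The other 5 pairs of these windows aligned over 7 to 14 positions. The stretch lies before the start in Ccl6 and across it in Ccl9, so the 2 annotated starts do not sit at the same place in it.

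Ccl8 shows the only TATAAA of these promoters that lies within 60 bases of the start, beginning 32 bases before it. Its 60 bases before the start, chr11:82115125-82115184 on the plus strand, read as follows, with the TATAAA in capitals.
Ccl8: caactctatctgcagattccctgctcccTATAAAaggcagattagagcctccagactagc
On both strands of the 250 bases before the start, TATAAA was found in Ccl8 and Ccl9 and in 12.4% of 32851 promoters of that table. The letters TGANTCA, an AP-1 motif, were found in Ccl9, beginning 53 bases before the start, and in 6.75% of promoters. The letters GGGANNTTCC, an NF-kB motif, were in 0 of the 4 members and 1.21% of promoters, and TTCNNNNGAA, a STAT6 motif, in 0 of the 4 and 5.85%. No sequence is printed for the other 6 members.

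Some tissue markers differed widely between arrays of the same group. Krt10, a keratin of cornified skin, was high on TGFB 1, TGFB 2 and wildtype 2 (signals of 8494 to 11198) and ran from 139.8 to 409 on the other 5. Krt12, the keratin of corneal epithelium, was lowest on TGFB 1 (289) and wildtype 4 (562) and reached 5766 elsewhere. Wildtype 4 also had the highest signal of the stromal proteoglycan Kera (8110) and the highest ratio of the 3′ to the 5′ Gapdh probe set (6.41, against 2.19 to 4.31 on the other arrays), a measure of RNA integrity. All 8 pigment genes had lower means in TGFB. The 8 lens genes summed to 73.2 to 16379 in TGFB and 141 to 20791 in wildtype, highest on wildtype 3 and TGFB 4. Tgfb1 itself differed by 0.36 (log2, SE 0.25), with a limma adjusted p of 0.817. Values without wildtype 4, or without the 3 arrays with high Krt10, stand beside the results below where they matter. The part of these differences in the chemokine values was not tested.

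Signals are the deposited linear probe set intensities. Differences are TGFB minus wildtype means of log2(signal + 16), with the moderated standard error (SE) of limma fitted on all 18193 genes. On this scale the difference of a dim gene is understated. Over all genes, limma called 0 of 18193 (0%) at the 0.05 threshold after adjustment, the smallest value being 0.623. Before adjustment 1288 genes (7.08%) lay under the same threshold. The 4 values of one group lay wholly above those of the other for 717 genes (3.94%), the background for the member count. Of the 10 chemokines 1 (Ccl24) had groups that did not overlap. Since the members were selected on this contrast, nothing is read from that count. Ccl24, Ccl11 and Ccl8 had lower means in TGFB and the other 7 higher means. The median difference was 0.08 over the 10 members and -0.01 over all genes.

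**Figure D1:**
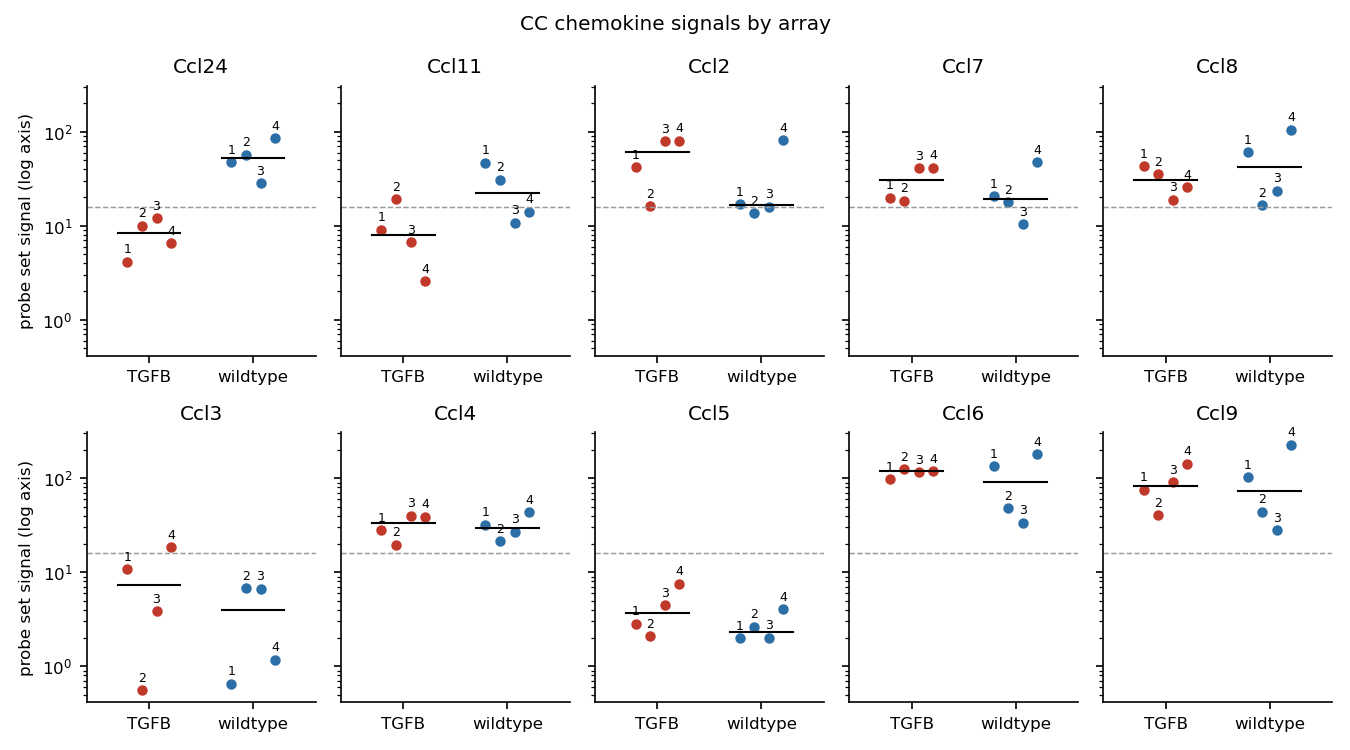
Signal of each of the 10 chemokines (the probe set that represents the gene) on each array, on a log axis. Points are arrays numbered within their group, bars are group medians, and the dashed line marks a signal of 16. Ccl24 is the only one whose groups are separate, while Ccl2 is high on TGFB 3, TGFB 4 and wildtype 4.

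Ccl24, eotaxin-2, was lower on every TGFB array than on any wildtype array. Its signals were 4.13, 10.03, 12.1 and 6.54 in TGFB 1 to 4 and 47.7, 56.9, 28.3 and 85.0 in wildtype 1 to 4. All 4 TGFB signals lay under 16, near the floor of the array, and all 4 wildtype signals lay above it. The mean log2(signal + 16) was 4.58 ± 0.21 (SD, n = 4) in TGFB and 6.08 ± 0.49 (SD, n = 4) in wildtype, a difference of -1.49 (SE 0.24). As plain signals the means were 8.19 and 54.5, a ratio of 6.65 of wildtype to TGFB, which rests on TGFB values that are barely measured. Of the 18193 genes, 141 had a larger absolute difference and 59 had a more negative one. The difference was -1.30 (SE 0.21) without wildtype 4 and -1.39 (SE 0.36) without the 3 arrays with high Krt10. Ccl24 was selected on this difference and its groups do not overlap, so these omissions could not change its sign. The part of those arrays in its size was not tested. With an offset of 1 in place of 16 it was -2.58, and with 32 it was -1.07, as the offset weighs most on signals as dim as those of TGFB.

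Ccl11, eotaxin-1, had signals of 9.12, 19.0, 6.71 and 2.58 in TGFB, against 47.1, 31.0, 10.8 and 14.1 in wildtype. The groups overlapped through TGFB 2, which lay above wildtype 3 and wildtype 4. Its difference was -0.67 (SE 0.30), from 4.63 ± 0.38 to 5.30 ± 0.57 (SD, n = 4 each), with 5 of 8 signals under 16. Leaving out TGFB 2, the array through which they overlapped, was therefore bound to separate its groups. The groups of 6.74% of all genes did not overlap under that omission, which was not picked for each gene. With any other single array left out, the Ccl11 groups still overlapped. Leaving out 1 array gave differences from -0.44 (without wildtype 1) to -0.86 (without wildtype 3), and an offset of 1 gave -1.40. Both eotaxins were thus lower in TGFB by their means, and wildtype 3 had the lowest wildtype signal of each.

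The receptor of both eotaxins, Ccr3, had no signal above 3.08 on any array, with a difference of -0.12 (SE 0.12). Other eosinophil markers were as dim. Siglecf, a lectin of the eosinophil surface, and the granule protein genes Epx and Prg2 lay under a signal of 16 on all 8 arrays. Il5ra, the interleukin-5 receptor, did so on 7. The 5 measured of 7 eosinophil markers summed to 7.14 to 30.2 in TGFB and 13.3 to 48.0 in wildtype, so the group ranges overlapped. Defining eosinophil transcripts were therefore near the floor in both groups, including the wildtype arrays on which the Ccl24 signal lay above 16.

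Ccl2, the main attractant of Ccr2-bearing monocytes, was high on 3 arrays that do not follow the groups. Its signals were 41.7, 16.2, 79.7 and 80.3 in TGFB and 16.96, 13.7, 15.97 and 81.5 in wildtype. TGFB 3, TGFB 4 and wildtype 4 had nearly the same signal, and 3 of the 4 wildtype arrays lay at 16.96 or less. The difference was 0.62 (SE 0.47), from 6.01 ± 0.75 in TGFB to 5.38 ± 0.82 in wildtype (SD, n = 4 each). It was 0.95 without TGFB 2. Without wildtype 4 it was 1.03 (SE 0.37), yet the groups still overlapped, because TGFB 2 lay below wildtype 1. Under that omission the groups of 12.4% of all genes did not overlap, and Ccl24 was the 1 such gene among the members.

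Ccl7, the neighbour of Ccl2 and likewise a Ccr2 ligand, was high on the same 3 arrays. Its signals were 19.9, 18.4, 41.2 and 41.6 in TGFB and 20.6, 17.7, 10.4 and 47.6 in wildtype. The groups overlapped, with a difference of 0.24 (SE 0.30), of 0.49 (SE 0.24) without wildtype 4, 0.07 without wildtype 3, and 0.12 or 0.13 without TGFB 4 or TGFB 3. Ccl8 did not share this order. Its signals were 43.0, 35.3, 18.9 and 25.5 in TGFB and 60.5, 16.7, 23.7 and 105 in wildtype, highest on wildtype 4 and wildtype 1. TGFB 3 and TGFB 4, which were among the highest for Ccl2, were the lowest TGFB arrays for Ccl8. Its difference was -0.36 (SE 0.40), -0.02 (SE 0.31) without wildtype 4 and -0.65 without wildtype 2. Without the 3 arrays with high Krt10 it was -0.91 (SE 0.46).

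Ccl6 was steady in TGFB and scattered in wildtype. Its brighter probe set gave 98.0, 124, 117 and 120 in TGFB and 135, 48.0, 33.6 and 180 in wildtype. Wildtype 1 and wildtype 4 lay above every TGFB array, and wildtype 2 and wildtype 3 below every one. The SD of log2(signal + 16) was 0.13 in TGFB and 0.95 in wildtype, around means of 7.02 and 6.62. The difference of 0.40 had an SE of 0.41. It was 0.07 without wildtype 3, 0.20 without wildtype 2, 0.61 without wildtype 1 and 0.73 without wildtype 4. A second Ccl6 probe set gave 0.37 (SE 0.48) and did not show a narrow TGFB group. Its TGFB arrays read 53.8, 48.3, 70.9 and 132 and its wildtype arrays 61.1, 32.2, 16.9 and 155. The narrow TGFB spread therefore holds for 1 of the 2 probe sets, and no test compared the spreads.

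Ccl9 had signals of 75.4, 40.8, 91.2 and 143 in TGFB, against 103, 44.3, 28.1 and 227 in wildtype. The highest and the lowest values were both wildtype, and the difference was 0.05 (SE 0.52). Without wildtype 4 it was 0.51 (SE 0.42), and it turned negative without wildtype 3 (-0.31), TGFB 4 (-0.19) or wildtype 2 (-0.16). Its second probe set was dim, with 7 of 8 signals under 16, and gave -0.19 (SE 0.20). The 2 probe sets of Ccl9 thus differed in the sign of a difference smaller than its SE. Ccr1, the receptor of Ccl6 and Ccl9, had signals of 67.0, 29.2, 68.7 and 81.8 in TGFB, against 68.5, 35.3, 24.4 and 106 in wildtype. It too was lowest on TGFB 2, wildtype 2 and wildtype 3, and its difference was 0.14 (SE 0.37).

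Ccl3, Ccl4 and Ccl5 were dim or even between the groups. Ccl3, macrophage inflammatory protein 1-alpha, had 7 of 8 signals under 16, the exception being TGFB 4 at 18.5. Its difference of 0.26 (SE 0.24) is one between values near the floor, and it was 0.75 with an offset of 1 and 0.07 without TGFB 4. Ccl5, known from activated T cells, had all 8 signals under 16, between 1.98 and 7.57, with a difference of 0.11 (SE 0.13), of 0.44 with an offset of 1 and of 0.03 without TGFB 4. Ccl4, macrophage inflammatory protein 1-beta, was measured on all arrays, at 28.2, 19.6, 39.9 and 39.1 in TGFB and 32.1, 21.5, 27.0 and 43.6 in wildtype. Its difference was 0.02 (SE 0.20), the smallest of the 10 in size, with -0.09 without wildtype 2 and 0.15 without TGFB 2. Without TGFB 1, TGFB 2 and wildtype 2, the 3 arrays with high Krt10, the groups of Ccl24, Ccl11 and Ccl5 did not overlap. That was so for 21.8% of all genes with these few arrays, and the Ccl5 signals were all under 16.

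**Figure D2:**
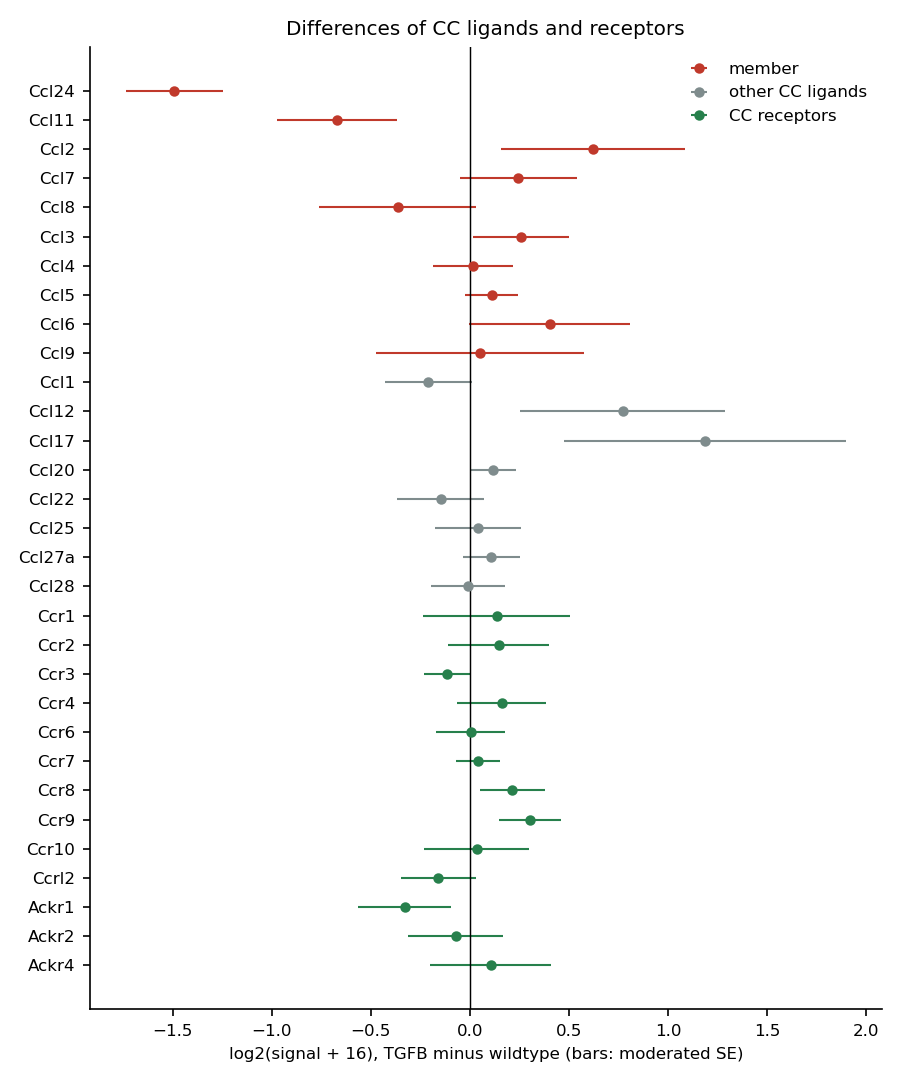
Difference of log2(signal + 16), TGFB minus wildtype, with its moderated standard error, for the 10 chemokines, the other measured CC ligands and the measured CC receptors. Ccl24 at -1.49 lies farthest below 0, and Ccl17 at 1.19 and Ccl12 at 0.77 lie farthest above it with wide errors.

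For some chemokines the order of the arrays cut across the groups. TGFB 3, TGFB 4 and wildtype 4 lay above all 5 other arrays for 4 of the 10 members, Ccl2, Ccl7, Ccl4 and Ccl5, the last with all signals under 16. The same order was found in 7.48% of all 18193 genes (1361), and the 3 arrays were picked after these values were seen, so the count is a description. Ccl12, another Ccr2 ligand, showed the same 3 arrays on top. Its TGFB signals were 106, 93.6, 206 and 190, and those of wildtype 81.8, 44.6, 29.5 and 253. So did Ccl17, a ligand of Ccr4, at 26.5, 29.4, 101 and 110 in TGFB and 2.54, 5.10, 1.78 and 136 in wildtype. Arg1, an arginase of alternatively activated macrophages, had 1056, 959 and 672 on TGFB 3, TGFB 4 and wildtype 4 and 73.0 to 213 on the others. Of the 17 resident macrophage genes Arg1 and Chil3 had these 3 arrays on top, while Folr2, Lyve1, Pf4 and Clec10a had them at the bottom, as did 9.19% of all genes. Pf4, for example, had 504, 517 and 489 on them and 1051 to 1260 on the others. The same 3 arrays had the lowest Krt10 signals (139.8 to 201). Wildtype 1 (211) and wildtype 3 (409) were low for Krt10 as well, without being high for these genes.

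**Figure D3:**
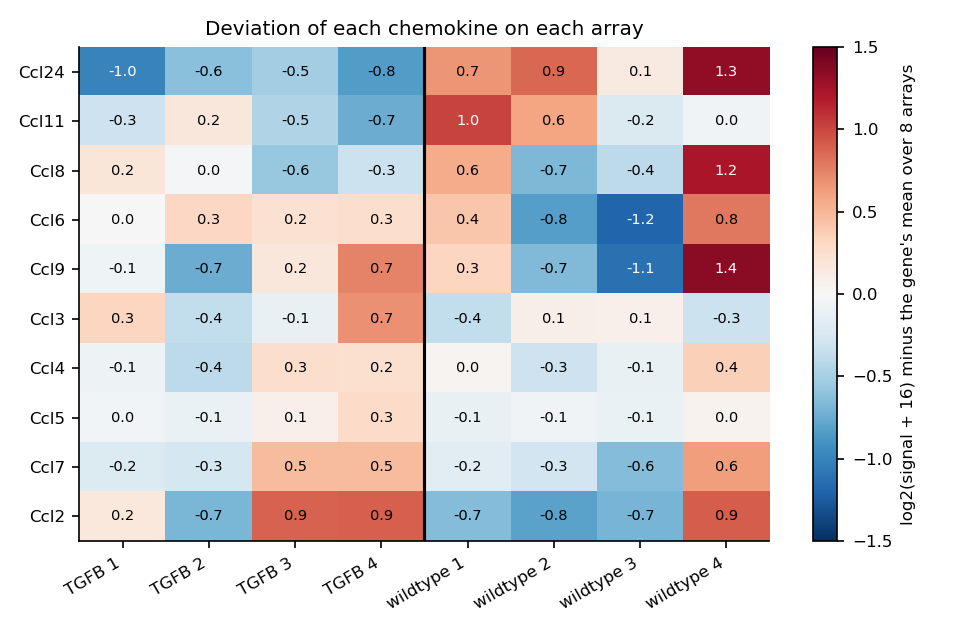
Deviation of each chemokine on each array from its own mean over 8 arrays, in log2(signal + 16). Rows are chemokines, columns are arrays with a line between the groups, and red is above the gene's mean. The Ccl24 row changes colour at the line, and the Ccl2 and Ccl7 rows are red on TGFB 3, TGFB 4 and wildtype 4.

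Over the 45 pairs of members, Pearson's r across the 8 arrays was positive for 31 and negative for 14. By exact two-sided permutation tests adjusted over the 45 pairs, 0 passed for r (10 at an unadjusted p, smallest adjusted p 0.0714) and 2 passed for Spearman's rho. Both were pairs of Ccl7, with Ccl2 and with Ccl9 (adjusted p = 0.0257 each). Ccl7 values fell into 3 high and 5 low arrays, too few for a relation within either set, so no pooled r is given for them. Ccl6 and Ccl9 had r = 0.80 and rho = 0.71 over 8 arrays (exact two-sided permutation p = 0.0152, adjusted p = 0.0896). Without the 2 arrays farthest from the median of Ccl6, r was 0.65. The pair that shares the promoter stretch above thus had a positive r that did not pass after adjustment, and other pairs had a higher r. Ccl4 and Ccl9, for example, had r = 0.86 and rho = 0.86, and Ccl4 had no promoter to align. Whether r goes with the shared stretch was not tested.

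Markers of macrophages, a cell type known to make many of these chemokines, had their highest r across arrays with Ccl9, Ccl8 and Ccl6. No relation passed after adjustment. The 17 macrophage genes were all measured, 7 with higher and 10 with lower means in TGFB, 0 called at an adjusted p and 1 (Adgre1, lower) at an unadjusted p. Their summed signal ran from 4776 to 5919 in TGFB and from 3619 to 9949 in wildtype, lowest on wildtype 2 and 3 and highest on wildtype 4 and 1. Ccl9 followed the mean of these genes with r = 0.91 and rho = 0.93 over 8 arrays (exact two-sided permutation p = 0.00226 for r, adjusted p = 0.08 over 50 relations). It was 0.73 without the 2 arrays farthest from the median of Ccl9, and 0.91 once group means were removed. For Ccl6 r was 0.87 (exact permutation adjusted p = 0.0996) and for Ccl8 it was 0.89 (exact permutation adjusted p = 0.08). Without the 2 farthest arrays these were 0.83 and 0.53, so the relation of Ccl8 leaned on 2 arrays. Ccl4 and Ccl7 had r = 0.67 each with the macrophage mean. Ccl3 and Ccl5, which also bind Ccr1, had r = -0.27 and 0.29. None of the 50 relations between a member and the macrophage, resident macrophage, stromal fibroblast, cornified or pigment genes passed after adjustment by r or by rho, and 7 did at an unadjusted p for r. In a bulk tissue, fewer cells of a type and less RNA per cell cannot be told apart.

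**Figure D4:**
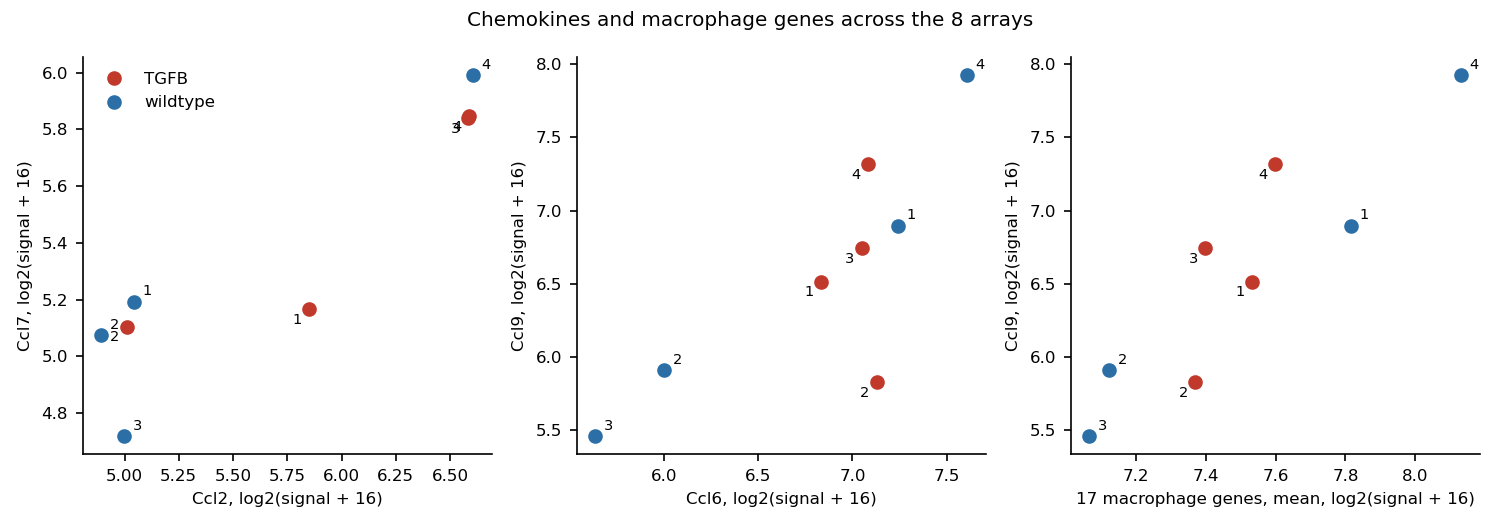
Values of log2(signal + 16) on the 8 arrays for Ccl7 against Ccl2, Ccl9 against Ccl6, and Ccl9 against the mean of 17 macrophage genes; red is TGFB, blue is wildtype, and digits are array numbers. In the left panel 3 arrays stand apart at the upper right, where TGFB 3 and TGFB 4 nearly coincide, and in the right panel the points rise from wildtype 3 to wildtype 4.

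Ccl24 had r = 0.32 and rho = 0.12 with the mean of the macrophage genes, and r = 0.46 and rho = 0.31 with that of resident macrophage genes (exact two-sided permutation, adjusted p for r = 0.729 and 0.618). Its r was higher with the mean of the 8 stromal fibroblast genes, 0.70 with rho = 0.62 (exact two-sided permutation, adjusted p for r = 0.32). That r was 0.39 without the 2 arrays farthest from the median. Once group means were removed it was 0.52, below the 0.59 of the macrophage genes and above the 0.26 of the resident ones. With the mean of the 8 pigment genes Ccl24 had r = 0.58 and rho = 0.67 (exact two-sided permutation, adjusted p for r = 0.547), 0.95 without the 2 farthest arrays, and -0.39 once group means were removed. All 8 genes of the fibroblast and pigment lists had lower means in TGFB, as Ccl24 did, and their part in its values was not tested. Ccl24 was selected on its group difference, and the permutations mixed the groups. That difference therefore enters each r and p of Ccl24 here, which are a description. Of the 17 macrophage genes 10 had lower and 7 had higher means in TGFB. Adgre1 and Cd163 (of the resident list), both lower, were named after their values were seen. Cd14 and Arg1 of the same lists differed by 0.74 (SE 0.42) and 1.27 (SE 0.83), both higher in TGFB. Adgre1, which encodes F4/80, had signals of 191, 185, 104 and 129 in TGFB, against 262, 222, 282 and 431 in wildtype. Its groups did not overlap, as was so for 3.94% of all genes, and its difference was -0.90 (SE 0.25, limma adjusted p = 0.639). Cd163, a haemoglobin scavenger receptor, had 12.98, 42.7, 11.5 and 15.2 in TGFB and 141, 44.5, 37.5 and 53.2 in wildtype. TGFB 2 lay above wildtype 3, and the difference was -1.15 (SE 0.37, limma adjusted p = 0.661). Of 17 resident macrophage genes 10 had lower and 7 higher means, with 0 called at an adjusted p and 2, both lower, at an unadjusted p. Their summed signals were 3892 to 4498 in TGFB and 3785 to 6866 in wildtype and overlapped. The part of these cells in the Ccl24 values was not tested.

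The summed signal of 7 measured T cell genes was 77.7 to 153 in TGFB and 76.0 to 102 in wildtype, and that of 4 natural killer cell genes was 20.9 to 48.8 and 26.3 to 54.7. The 6 measured neutrophil genes summed to 380 to 846 in TGFB and 95.8 to 1710 in wildtype, where wildtype 3 was highest. The 9 mast cell genes summed to 593 to 3996 in TGFB and 526 to 2604 in wildtype, and their proteases were highest on arrays with high Krt10. The 8 dendritic cell genes summed to 148 to 236 in TGFB and 99.7 to 220 in wildtype. In each of these 5 lists the ranges overlapped and 0 genes were called at an adjusted p. The single genes given next were named after their values were seen. Over all genes, groups did not overlap for 3.94%, the background for Hdc and Itgax below. Hdc, the histamine-forming enzyme of mast cells, had 197, 287, 69.5 and 79.7 in TGFB against 15.9, 68.2, 28.6 and 47.6 in wildtype. Its groups did not overlap, with a difference of 1.53 (SE 0.45, limma adjusted p = 0.639). In both groups its highest signals were on arrays with high Krt10, and of the 9 mast cell genes 6 had higher and 3 lower means. Csf3r, a neutrophil receptor, differed by 0.80 (SE 0.24, limma adjusted p = 0.639) and the class II gene H2-Ab1 by 1.07 (SE 0.41, limma adjusted p = 0.677), both with overlapping groups. Itgax, a dendritic cell integrin, did not overlap either, with TGFB signals of 10.1 to 11.7 and wildtype signals of 4.98 to 9.45, all under 16. These 3 genes were higher in TGFB by their means, but their lists were evenly split. Of the 6 neutrophil genes 3 had higher and 3 lower means, and of the 8 dendritic cell genes 4 had higher and 4 lower means. Mpo of the neutrophil list, for example, differed by -0.54 (SE 0.34).

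Among the other CC ligands 8 of 11 were measured, 5 with higher and 3 with lower means in TGFB, and 0 were called at an adjusted or an unadjusted p. Of 13 measured CC receptors, 9 had higher and 4 had lower means, again with 0 called at either. Ccr2, the receptor of Ccl2 and Ccl7, had 30.9, 20.7, 18.9 and 21.8 in TGFB and 5.99, 17.4, 22.5 and 37.8 in wildtype, a difference of 0.15 (SE 0.26). It was not high on TGFB 3 and TGFB 4, where its ligands were. Ccr8, the receptor of mouse Ccl8, ran from 0.424 to 9.57 over the 8 arrays, under 16 on each. Ackr1, an atypical receptor of vessel walls that binds chemokines without signalling, differed by -0.33 (SE 0.24), and the scavenging receptor Ackr2 by -0.07 (SE 0.24). Ccr9 had the smallest p of the receptors (limma unadjusted p = 0.0839), with a difference of 0.30 (SE 0.16) and 7 of 8 signals under 16.

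Of 19 genes that encode or relay chemokine-inducing signals 16 were measured, with 8 higher and 8 lower means and a median difference of 0.04. None was called at an adjusted p, and 3 were at an unadjusted p. Il33, an alarmin of epithelial and stromal cells, was lower on all TGFB arrays but 1, at 197, 192, 253 and 207 against 469, 348, 347 and 251 in wildtype. The exception, TGFB 3, lay just above wildtype 4, and the difference was -0.67 (SE 0.19, limma adjusted p = 0.639). Il1a differed by 0.75 (SE 0.30, limma adjusted p = 0.68) and Il1b by 0.70 (SE 0.29, limma adjusted p = 0.687), both higher in TGFB by their means. The Il1a signals lay under 16 on 6 arrays, the exceptions being TGFB 1 (19.3) and TGFB 2 (48.2). Il4 and Il13, the type 2 cytokines known to induce eotaxins, lay under a signal of 16 on all 8 arrays.

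The genes whose values across the 8 arrays were most like those of Ccl24 were sought among 10815 genes with a mean log2(signal + 16) of at least 6. They were Ndufb2, a subunit of mitochondrial complex I, with r = 0.97, Hddc3 with 0.96, the phosphodiesterase Pde7b with 0.93, the ciliary gene B9d1 with 0.93 and Tmem218 with 0.93. Without the 2 arrays farthest from the median these were 0.93, 0.95, 0.91, 0.86 and 0.93. All 5 had lower means in TGFB, by differences of -0.28 for Ndufb2 to -0.53 for Tmem218, smaller in size than that of Ccl24. Ndufb2 signals were 1138 to 1280 in TGFB and 1367 to 1563 in wildtype. These r values are a description, because 8 arrays in 2 groups and so many genes give high values readily, and the genes share the arrays and the group difference with Ccl24. For Ccl6 the nearest were Slc66a1 with r = 0.94 and Cd52, a leukocyte surface protein, with 0.93, and without the 2 farthest arrays they had 0.64 and 0.78. For Ccl9 they were Smim7 and Dnajc25, both with 0.98, and with 0.97 and 0.94 without those arrays.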

How the data were processed

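RNA of 8 mouse cornea samples, 4 per group, was measured on one-colour Affymetrix arrays. The deposited values are linear probe set intensities, and the tool that made them is not given in the sources used here. Each array has a 2% trimmed mean of 150, so no further normalization was applied. The number of arrays limits the precision. Values were taken as log2(signal + 16). Of 45101 probe sets, 64 controls were left out. The 2016 platform annotation gave 34945 probe sets 1 symbol, 932 several and 9224, controls included, none, and 34741 were matched by Entrez ID to RefSeq GRCm38.p6. Where a gene had several probe sets, the brightest by its mean over all 8 arrays stood for it, leaving 18193 genes. No 2 arrays were identical.

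The 2 groups were tested against each other in R 4.3.3 with limma 3.58.1 (lmFit, eBayes without a trend, Benjamini-Hochberg over all genes, threshold 0.05), a step tested on simulated data. Correlations used exact permutation over all pairings (scipy 1.17.1). Windows were aligned with biopython 1.88, and figures were drawn with matplotlib 3.10.9. Promoter sequences are those of RefSeq, GRCm38.p6.

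The members, the marker and pathway lists, the tests and the alternatives were chosen with earlier results of these data known. The rule for named genes takes every probe set of the 10 members, the members' receptors, at most 4 other genes per list by smallest p, and the genes most like Ccl24 (5), Ccl6 (2) and Ccl9 (2). Ackr2 was not named by its p. Single marker genes, Ccl12, Ccl17, Arg1, Il4 and Il13 were named after their values were seen. Alternatives were other offsets, quantile and median scaling, a filter on dim genes, other probe set rules, other limma settings, and leaving out arrays.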

Additional observations from a re-analysis of the deposited data

Results flagged for a closer look

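Among 24 groups of 4 signals checked (12 probe sets in 2 groups), 1 held an array far from the rest. Ccl2 on wildtype 4 had a signal of 81.5, while the other wildtype arrays had 16.96, 13.7 and 15.97. The gap to the nearest array was 0.91 of the whole range of the group, above the 95% limit of Dixon's criterion for 4 samples. Chance puts about 1 in 20 groups past that limit. The same array was also the highest of the 8 for Ccl24, Ccl7, Ccl8, Ccl4, Ccl6 and Ccl9, and had the highest Gapdh 3′ to 5′ ratio, 6.41. Its part in the Ccl2 value was not tested. Without it the Ccl2 difference was 1.03 (SE 0.37) in place of 0.62 (SE 0.47).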

How the results depend on the processing

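The Ccl24 difference was negative in all 15 alternatives, from -2.58 with an offset of 1 to -1.07 with an offset of 32, and these were the 2 that moved it by more than the spread between arrays. Leaving out arrays could not change the sign of Ccl24, as its groups do not overlap. Ccl11 and Ccl8 kept a negative sign and Ccl2, Ccl3, Ccl5, Ccl6 and Ccl7 a positive one in the same 15, while Ccl4 kept its sign in 9 and Ccl9 in 11. Leaving out 1 array, limma called 0 to 2 genes at an adjusted p, 2 of them without wildtype 4, against 887 to 2302 at an unadjusted p. In all other settings it called 0, with the smallest adjusted p at 0.0541 for an offset of 1. The members whose groups did not overlap were 1 to 2 when 1 array was left out (2 without TGFB 2) and 3 without the 3 arrays with high Krt10. Pairs of members past the adjusted threshold for r were 4 with quantile normalization and 0 to 1 when 1 array was left out, and the cause was not tested. Relations with marker lists were 0 in every setting, and 5 arrays cannot reach a small p. No paired analysis was possible because the array numbers are record order and pair nothing. Signals under 16 limit Ccl24 in TGFB, Ccl3, Ccl5 and Ccl11, whose size depends on the offset.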
